A study of Mus musculus with 6 samples.

Results

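Sphingosine-1-phosphate (S1P) is a signalling lipid, and 9 genes for making, exporting, sensing and removing it were followed in mouse spleen endothelium. They are the receptor genes S1pr1, S1pr2 and S1pr3, the kinase genes Sphk1 and Sphk2, the exporter gene Spns2, and Sgpp1, Ppap2b and Sgpl1, whose products remove S1P. They were chosen by symbol from the 23337 genes of the deposited table, with earlier results of these data known, and all 9 were found. The cells were sorted as CD31-positive and CD45-negative from collagenase-digested spleens, in 3 libraries from wild-type mice and 3 from mice lacking Stab1 (Stab1-/-), all labelled C57BL/6 and blood endothelial. Stab1 encodes stabilin-1, or Clever-1, a scavenger receptor of sinusoidal endothelium, and the study asked how it bears on contacts between spleen vessels and lymphocytes. No treatment is labelled, and the age of the mice and the make of the deleted allele are not given in the sources used here. Whether the libraries are from separate animals is not stated in the labels, so the p-values reflect spread among these libraries alone.

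S1P is made inside cells by phosphorylation of sphingosine and leaves endothelium through the transporter SPNS2. It is high in blood and lymph and low within tissues, and lymphocytes follow that difference when they leave lymphoid organs. Endothelial cells both release S1P and sense it through G protein-coupled receptors, of which S1P1 strengthens junctions between the cells. In the spleen the same signal helps to place marginal zone B cells.

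Levels are given as RPKM (reads scaled to gene length and to library depth), which are per length and can be compared between genes. Values per library are listed in the order WT 1, WT 3, WT 4 and then KO 2, KO 3, KO 4, after the numbers in the deposited column names, which are not the labels' replicate numbers. The depth, recovered from the RPKM values, was 40274424 to 51498038 reads counted to genes per library. Stab1, examined first as a check of the labels, was at 21.6, 43.6 and 31.4 RPKM in the wild-type libraries and at 2.32, 2.62 and 2.49 in the knockout libraries. The log2 fold change of Stab1, knockout minus wild type, was -3.40 ± 0.22 (SE, adjusted p = 7.15e-05 in limma). An exact permutation test of the Stab1 means reached 0.1 (two-sided), which is the lower limit for 3 against 3 libraries. Endothelial identity was high in every library, with Pecam1 (CD31) at 273 to 360 RPKM and Cdh5 (VE-cadherin) at 79.1 to 107, while Ptprc (CD45) was at 0.110 or less. Lyve1, a marker of lymphatic and some sinusoidal endothelium, was at 0.332 to 2.12. These are bulk libraries, so fewer cells of a type and less RNA per cell cannot be told apart.

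The S1P genes spanned a wide range of levels, and their order was nearly the same in every library. Ppap2b was highest, at 349 ± 30.1 RPKM (SD over 6 libraries), followed by Sgpp1 at 116 ± 9.27 and S1pr1 at 90.5 ± 7.24. Spns2 was at 20.1 ± 2.80, Sphk2 at 10.5 ± 1.5, Sgpl1 at 10.5 ± 1.78 and Sphk1 at 7.08 ± 1.39. S1pr2 and S1pr3 were lowest, at 2.18 ± 0.610 and 1.82 ± 0.545. Among the 11035 tested genes, those that reached 1 RPKM in 3 or more libraries, Ppap2b stood at percentile 98.4 of mean level, Sgpp1 at 92.9, S1pr1 at 90.5 and S1pr3 at 10. Each gene exceeded the next one down in all 6 libraries, except for Sphk2 over Sgpl1 (3 of 6) and S1pr2 over S1pr3 (5 of 6). Those pairs had overlapping ranges and did not differ beyond their spread. S1pr1 exceeded Spns2 by 3.55- to 5.79-fold, and Ppap2b exceeded Sgpp1 by 2.67- to 3.18-fold within a library.

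**Figure D1:**
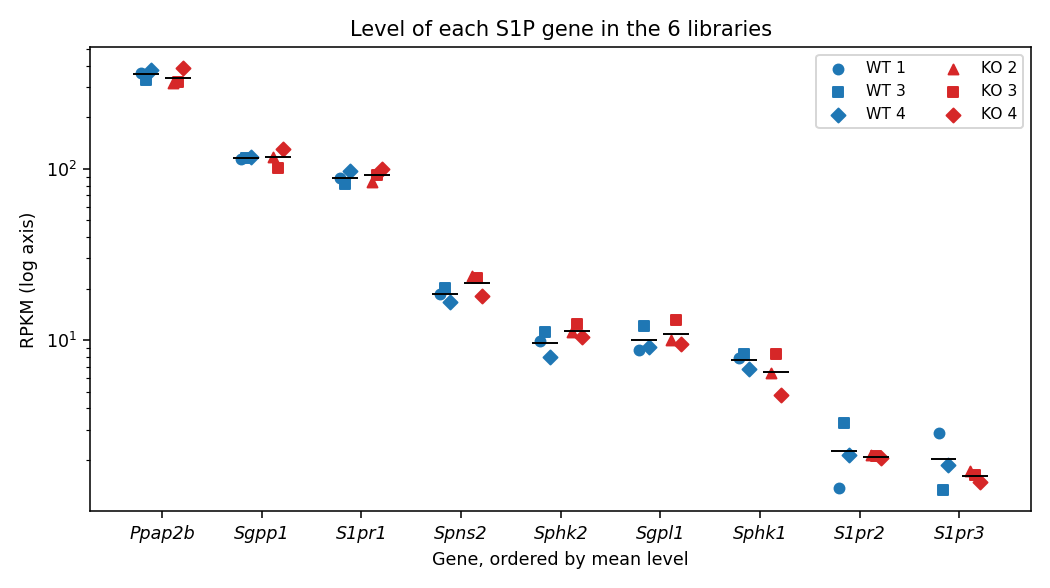
RPKM (log axis) of the 9 S1P genes, ordered by mean level; each point is 1 library, blue for wild type and red for knockout, and black lines are group means. The groups overlap for every gene, and the widest spread is that of S1pr2 and S1pr3 in wild type.

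None of the 9 genes passed the genotype test. All 9 passed the filter on low values and were tested, and 0 had an adjusted p under 0.05 in limma, where 1.94% of all tested genes did. At an unadjusted p under 0.05 there were also 0 of 9, against 15.7% of all tested genes, and the authors' deposited table gave adjusted p-values of 0.477 to 0.991 for the same 9 genes. Wild-type and knockout values overlapped for every one of them, while they did not overlap for 20.3% of all tested genes. The log2 fold change was positive for 4 and negative for 5, with a median of 0.00, beside 0.03 over all genes tested. Fold changes and intervals were computed on log2(RPKM + 0.5), where the 95% intervals of all 9 lay within a 2-fold change of RPKM + 0.5 in either direction, as they did for 89.9% of all tested genes. Under an alternative fit that weighted libraries by their quality, Sphk2 (0.42, adjusted p = 0.0182 in limma) and Spns2 (0.40, adjusted p = 0.0115) were called, and 3653 genes in all. The scale of log2(RPKM + 0.5) understates the changes of low genes. Turned back into ratios of RPKM at the wild-type mean, the bounds of the main fit ran from 0.50, for S1pr3, to 1.53, for S1pr2. A 2-fold fall of S1pr3 was thus at the edge of its interval.

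**Figure D2:**
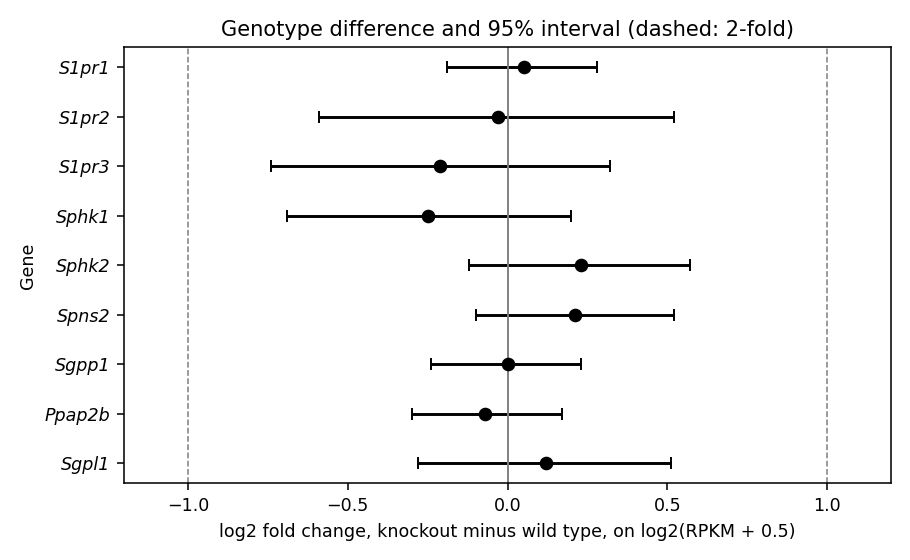
Log2 fold change (knockout minus wild type, on log2(RPKM + 0.5)) of each S1P gene from limma, with its 95% interval; dashed lines mark a 2-fold change on that scale. Every interval crosses 0 and lies inside the dashed lines, and the interval is narrowest for S1pr1, Sgpp1 and Ppap2b.

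S1pr1 was the main receptor message of the 3 receptor genes followed. Its product couples to Gi and, in endothelium, to Rac and junction assembly. S1pr1 (gene ID 13609, chromosome 3, 115710433 to 115715055, GRCm38, coding sequence in 1 exon) was at 88.9, 81.4 and 96.7 RPKM in the wild-type libraries. In the knockout libraries it was at 83.6, 92.5 and 99.8. WT 3 was the lowest library and KO 4 the highest, and the groups overlapped. The log2 fold change was 0.05 ± 0.10 (SE, adjusted p = 0.849 in limma), with an interval that allows ratios of 0.88 to 1.22. It had 11226 to 14248 reads per library, with a counting error of at most 0.9% beside coefficients of variation of 8.6% in wild type and 8.8% in knockout. Reads of an amplified low-input library are not independent molecules, so these errors cover the counting of reads only.

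S1pr2 and S1pr3 were both low, and wild-type libraries differed in which of them was the higher. S1P2 couples mainly to G12/13, and S1P3 to Gq as well as Gi. S1pr2 (chromosome 9, 20965952 to 20976793) was at 1.37, 3.27 and 2.15 RPKM in the wild-type libraries, and at 2.14, 2.10 and 2.04 in the knockout libraries. S1pr3 (chromosome 13, 51408618 to 51422797) was at 2.86, 1.33 and 1.87 in the same wild-type libraries and at 1.73, 1.63 and 1.49 in knockout. WT 1 thus had the least S1pr2 and the most S1pr3 of the 6 libraries, and WT 3 the reverse, so that S1pr2 made up 32.4% of the pair's RPKM in WT 1 and 71.1% in WT 3. In knockout it made up 55.4% to 57.7%. The highest wild-type library exceeded the lowest 2.38-fold for S1pr2 and 2.16-fold for S1pr3, against 1.05- and 1.16-fold in knockout, and whether the spread differs between genotypes was not tested. These values rest on 161 to 465 and 273 to 535 reads, with counting errors of at most 7.9% and 6.1%. The wild-type coefficients of variation were 42.1% and 38.5%, and the knockout ones 2.6% and 7.3%, so that in knockout S1pr2 varied less than its counting error and S1pr3 about as much. WT 1 was also highest and WT 3 lowest for several stromal and mesothelial markers, such as Dcn (96.1 and 3.68 RPKM) and Msln (3.37 and 0), picked after their values were seen. Other stromal markers did not follow that order. Cxcl12 was highest in WT 3 (32.0 RPKM, against 26.9 in WT 1), and Col1a1 was higher in WT 3 (7.40) than in WT 4 (7.30) and KO 4 (6.05). Summed mesothelial markers were at 16.0, 1.07 and 7.31 RPKM in the wild-type and 6.73, 5.01 and 2.10 in the knockout libraries, and summed reticular and fibroblast markers at 378, 185 and 173 in the wild-type and 184, 136 and 139 in the knockout libraries. Their part in the S1pr2 and S1pr3 levels was not tested. The log2 fold changes were -0.03 ± 0.25 (SE) for S1pr2 and -0.21 ± 0.24 (SE) for S1pr3 (adjusted p = 0.956 and 0.682 in limma). The sign of S1pr3 turned without WT 1 (0.02) and that of S1pr2 without WT 3 (0.22).

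As a share of the RPKM of the 3 receptor genes, S1pr1 took 95.5%, 94.7% and 96.0% in the wild-type libraries and 95.6%, 96.1% and 96.6% in the knockout libraries. The ranges overlapped, and the difference of 0.72 percentage points had a two-sided exact permutation p of 0.2 (0.333 adjusted over the 5 shares compared). The remaining receptor genes were measured too. S1pr4, best known from lymphocytes, was at 12.6, 12.3 and 11.8 RPKM in wild type and 8.92, 11 and 9.02 in knockout, above S1pr2 and S1pr3 in every library. All 3 knockout values of S1pr4 lay below all 3 wild-type values, but the log2 fold change of -0.34 ± 0.13 (SE) did not pass (adjusted p = 0.265 in limma). S1pr4 made up 10.5% to 12.5% of the RPKM of the 4 detected receptor genes in the wild-type libraries and 8.0% to 10.2% in the knockout ones (two-sided exact permutation p = 0.1, 0.25 adjusted). Of the lymphocyte markers, Cd3e was at 0.123 RPKM or less and Ncr1 was listed at 0 in every library, and Lck, at 6.47 to 7.81, was the 1 lymphocyte marker of 14 high enough to test. The summed level of these markers was 9 to 9.39 RPKM in wild type and 8.56 to 9.62 in knockout. S1pr5 was listed at 0 in every library.

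Of the 5 shares within a library that were compared, that of S1pr4 and the balance of the kinases had groups that did not overlap. The share of S1pr4 was chosen after its values were seen. The levels of 20.3% of all tested genes did not overlap either. Sphk1 and Sphk2 both phosphorylate sphingosine, Sphk1 mainly at the cytosol and plasma membrane and Sphk2 also in the nucleus and mitochondria. Sphk1 (chromosome 11, 116530836 to 116536675) was at 7.87, 8.29 and 6.81 RPKM in the wild-type libraries and at 6.39, 8.34 and 4.77 in the knockout libraries. KO 4 was the lowest and KO 3 the highest of all 6 libraries, so the groups overlapped. Sphk2 (chromosome 7, 45709463 to 45718002) was at 9.94, 11.1 and 7.99 RPKM in the wild-type libraries and at 11.1, 12.5 and 10.5 in the knockout libraries. Here WT 4 was lowest and KO 3 highest. Neither gene passed, with log2 fold changes of -0.25 ± 0.20 (SE) for Sphk1 and 0.23 ± 0.15 (SE) for Sphk2 (adjusted p = 0.564 and 0.492 in limma).

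Set against each other within a library, the groups of kinase values did separate. Sphk2 exceeded Sphk1 in all 6 libraries. Sphk1 made up 44.2%, 42.8% and 46.0% of the summed kinase RPKM in the wild-type libraries, and 36.5%, 40.1% and 31.3% in the knockout libraries. The means were 44.3% ± 1.63 (SD, n = 3) and 36.0% ± 4.44 (SD, n = 3), and every knockout share lay below every wild-type share. The difference of -8.35 percentage points had an exact permutation p of 0.1 (two-sided), again the lower limit for 3 against 3, so the design cannot bring it past 0.05. Adjusted over the 3 planned shares the p was 0.3, and over all 5 shares compared it was 0.25. The difference was -6.01 without KO 4 and -10.42 without KO 3. The summed kinase level was 14.8 to 19.4 RPKM in wild type and 15.2 to 20.8 in knockout. Annotated exons of Sphk1 share 4.0% of their bases with the antisense gene Gm29292. Those of Sphk2 share 13.0% with the oppositely oriented gene Dbp and 9.0% with Rpl18, and the library kit is not one that marks strand, so reads there cannot be assigned. Dbp was at 18.8 to 22.5 RPKM in wild type and 15.3 to 24.4 in knockout. Rpl18, whose groups did not overlap, was at 27.6 to 31.6 in wild type and 33.9 to 37.8 in knockout (adjusted p = 0.261 in limma), and its part in the share was not tested.

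**Figure D3:**
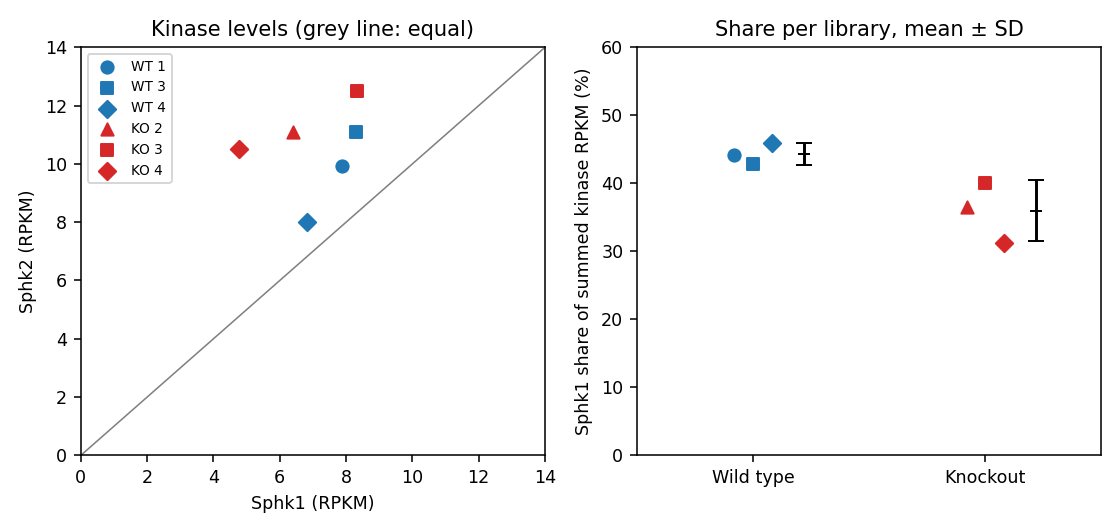
Left, Sphk2 against Sphk1 in each library (RPKM, linear axes, grey line for equal levels); right, the Sphk1 share of the summed kinase RPKM (%) per library with mean ± SD (n = 3). All 6 libraries lie above the line of equal levels, and the 3 knockout shares, 31.3% to 40.1%, lie below the 3 wild-type shares, 42.8% to 46.0%.

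Spns2, the exporter through which endothelium supplies S1P to lymph, stood at percentile 63.2 of all tested genes by mean level. Spns2 (chromosome 11, 72451638 to 72489976) was at 18.7, 20.3 and 16.7 RPKM in the wild-type libraries and at 23.6, 23.2 and 18.1 in the knockout libraries. KO 2 and KO 3 lay above every wild-type library, while KO 4 lay within the wild-type range. Its log2 fold change of 0.21 ± 0.14 (SE) had an interval of -0.10 to 0.52, and its adjusted p of 0.488 in limma was the lowest among the 9 genes. The lymphatic regulator Prox1 was at 16.9 to 33.8 RPKM in wild type and 21.1 to 26.3 in knockout. Other lymphatic markers were mixed. Over all libraries Flt4 was at 28.7 to 76.8 RPKM, but Pdpn was at 0.0447 to 0.99, Reln at 0.0348 or less and Ccl21a at 0. The tested genes whose profile over the 6 libraries was most like that of Spns2 were Rbck1, Zbtb22 and Adprhl2. Their root-mean-square differences from it were 0.0254, 0.0317 and 0.0341 on the centred log2 scale, against a median of 0.245 over all tested genes, and over 6 libraries such likeness is a description only. Rbck1, for one, was at 67.5, 73.0 and 62.3 RPKM in wild type and 82.5, 82.7 and 64.2 in knockout. Annotated exons of Spns2 share 3.2% of their bases with Mybbp1a, on the opposite strand.

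The exporter of red cells and platelets, Mfsd2b, was far lower than Spns2. It was at 2.01, 4.68 and 1.17 RPKM in the wild-type libraries and at 1.22, 1.23 and 1 in the knockout libraries (log2 fold change -0.76 ± 0.35 SE, adjusted p = 0.331 in limma). WT 3, the highest for Mfsd2b, was also the highest for the platelet gene Pf4, at 88.4 RPKM against 52.3 in WT 1, 36.3 in WT 4 and 15.4 to 19.2 in knockout. All 15 megakaryocyte and platelet markers were tested, and 1 was called in limma (Pf4, lower), where 1.94% of all tested genes were. At an unadjusted p under 0.05 there were 6, against 15.7% of all tested genes. Values were negative for 14 (median log2 fold change -0.76), against 45% of all tested genes. Their summed level was 120 to 336 RPKM in wild type and 83.2 to 110 in knockout. Of 12 erythroid markers, 4 were tested and 0 called in limma (1 at an unadjusted p under 0.05), beside the same 1.94% and 15.7%. Their summed level was 26.3 to 93.1 RPKM in wild type and 12.6 to 56.8 in knockout, with Hba-a1 and Hba-a2 listed at 0 throughout. Car2 had the highest mean of these markers, at 16.5 to 39.4 RPKM in wild type and 9.92 to 36 in knockout. The part of these cells in the Mfsd2b, Sphk1 and Sphk2 levels was not tested.

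Of the genes that remove S1P, Sgpp1 and Ppap2b varied little between the 6 libraries (coefficients of variation of 8.0% and 8.6%) and Sgpl1 more (17.1%). Sgpp1 encodes an S1P phosphatase of the endoplasmic reticulum, Ppap2b (now named Plpp3) a lipid phosphatase that acts on S1P and lysophosphatidic acid at the cell surface, and Sgpl1 the lyase that cleaves S1P irreversibly. Sgpp1 (chromosome 12, 75714248 to 75735729) was at 115, 116 and 118 RPKM in the wild-type libraries and at 118, 101 and 130 in the knockout libraries. The wild-type libraries lay close together, and the knockout values spread to either side of them. Its log2 fold change was 0.00 ± 0.11 (SE, adjusted p = 0.992 in limma), with ratios of 0.85 to 1.17 allowed.

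Ppap2b (chromosome 4, 105157347 to 105232767) was at 363, 330 and 377 RPKM in the wild-type libraries and at 316, 321 and 386 in the knockout libraries. KO 2 and KO 3 were the lowest libraries and KO 4 the highest, and the log2 fold change was -0.07 ± 0.11 (SE, adjusted p = 0.776 in limma). Sgpl1 (chromosome 10, 61098642 to 61147684) was at 8.78, 12.1 and 9.18 RPKM in wild type and at 10, 13.2 and 9.46 in knockout. WT 3 and KO 3 stood above the other libraries of their groups, and the log2 fold change was 0.12 ± 0.18 (SE, adjusted p = 0.770 in limma). Without KO 3 the value for Sgpl1 was -0.02. The 3 genes together summed to 457 to 505 RPKM in wild type and 436 to 525 in knockout, of which Sgpp1 took 24.1% ± 1.02 (SD, n = 3) and 24.9% ± 1.70 (SD, n = 3). That share differed by 0.77 percentage points (two-sided exact permutation p = 0.7, also adjusted) and by -0.10 without KO 2.

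Other genes of S1P handling did not pass either. Of 20 further receptors, phosphatases, exporters, carriers and ceramidases, 14 were tested and 0 were called in limma, where 1.94% of all tested genes were. The median log2 fold change was -0.02, and 3 had an unadjusted p under 0.05, against 15.7% of all tested genes. All 3 of these had negative values, namely S1pr4 (above) and the lipid phosphatase genes Ppap2a and Ppap2c, relatives of Ppap2b. Ppap2c was at 28.6, 32.7 and 34.3 RPKM in wild type and 25.5, 29.3 and 21.5 in knockout (log2 fold change -0.33 ± 0.14 SE, adjusted p = 0.283 in limma). Ppap2a, with Ppap2b the most abundant of these phosphatase genes, was at 416, 441 and 366 RPKM in the wild-type libraries against 338, 352 and 358 in the knockout ones, with no overlap (-0.22 ± 0.10 SE, adjusted p = 0.304). The carrier gene Apom, made mainly by liver and kidney, and the ceramidase gene Acer1 were listed at 0 throughout, and the acid ceramidase gene Asah1, which frees sphingosine in lysosomes, was at 162 to 205 RPKM.

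Upstream, none of the tested genes of ceramide and sphingolipid synthesis and turnover passed. Of 42 entries, 35 were tested and 0 called in limma, where 1.94% of all tested genes were called. An unadjusted p under 0.05 was reached by 2, against 15.7% of all tested genes. The groups of 5 did not overlap, against 20.3% of all tested genes. Values were positive for 18 and negative for 17, with a median log2 fold change of 0.01. Degs1, which encodes the desaturase that completes ceramide, was at 579, 521 and 459 RPKM in the wild-type libraries and at 621, 685 and 660 in the knockout libraries. Its groups did not overlap, but the log2 fold change of 0.34 ± 0.10 (SE) did not pass (adjusted p = 0.164 in limma). Ugcg, whose product diverts ceramide to glucosylceramide, was at 18.7, 23.4 and 25.8 in the wild-type and 14.6, 15.5 and 19.8 in the knockout libraries (-0.43 ± 0.16 SE, adjusted p = 0.232).

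Downstream of the receptors, 4 signalling genes did pass. Of 37 genes from G proteins to kinases and regulators, 34 were tested. Of these, 1 rose and 3 fell, beside 0.671% of all tested genes that rose and 1.27% that fell. An unadjusted p under 0.05 in limma was reached by 11, against 15.7% of all tested genes. The groups of 9 did not overlap, against 20.3%. Values were positive for 25, and the median log2 fold change was 0.09. The list was chosen with earlier results of these data known, so these counts are a description only. Endothelial nitric oxide synthase is a protein that S1P1 signalling acts on through Akt, and levels of its message do not measure that. Its gene, Nos3, was at 59.5, 84.5 and 91.9 RPKM in the wild-type libraries. In the knockout libraries it was at 198, 178 and 138, above every wild-type library (log2 fold change 1.13 ± 0.18 SE, adjusted p = 0.0138 in limma). The call of Nos3 was lost without KO 2 or KO 3 and when low genes were not filtered out (adjusted p = 0.0552 to 0.0936), with log2 fold changes of 1.01 to 1.13.

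Rock1 and Rock2 encode kinases that contract the actin cytoskeleton. Rock1 fell from 13.6, 12.7 and 14.1 RPKM in wild type to 7.14, 6.70 and 7.05 in knockout (-0.90 ± 0.13 SE, adjusted p = 0.00859 in limma). Rock2 fell from 14.7, 16.9 and 19.1 to 7.69, 8.87 and 9.61 (-0.91 ± 0.15 SE, adjusted p = 0.0148). Neither gene's groups overlapped. With trends in GC content and length taken out, the value for Rock1 was -0.56 and its call was lost (adjusted p = 0.0571), as it was without KO 3 (-0.87, adjusted p = 0.0523). With the same removal Rock2 was at -0.60 and kept its call, which was lost on leaving out WT 4, KO 2 or KO 3 and when low genes were not filtered out (-0.93 to -0.83, adjusted p = 0.0627 to 0.0788).

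Rgs5, which encodes a brake on Gi and Gq signalling and is also a pericyte marker, fell from 8.71, 5.14 and 5.83 RPKM to 1.97, 1.91 and 2.87 (-1.34 ± 0.23 SE, adjusted p = 0.0194 in limma). Its call was lost on leaving out WT 4, KO 2 or KO 3 and when low genes were not filtered out (-1.41 to -1.26, adjusted p = 0.0553 to 0.103). Of 12 pericyte and smooth muscle markers it was the 1 called, where 1.94% of all tested genes were. Their summed level was 582 to 773 RPKM in wild type and 602 to 705 in knockout. Highest among them were Kcnj8, at 187 to 258 RPKM, and Acta2, at 160 to 320, neither of them called. The G protein genes nearest to the receptors were not called. Gnai2, the most abundant, was at 508 to 531 RPKM in wild type and 499 to 574 in knockout, and Gna13 at 10.5 to 15.0 and 14.6 to 15.1. Log2 fold changes were -0.38 ± 0.14 (SE) for Gnai3, -0.36 ± 0.15 (SE) for Gnaq and 0.23 ± 0.10 (SE) for Gna11. Their adjusted p-values in limma were 0.245, 0.3 and 0.321, and the groups of Gnaq and Gna11 did not overlap. Klf2, a flow-induced transcription factor gene known to raise S1pr1 expression, was at 479, 430 and 450 in the wild-type and 502, 584 and 478 in the knockout libraries (0.20 ± 0.10 SE, adjusted p = 0.374).

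**Figure D4:**
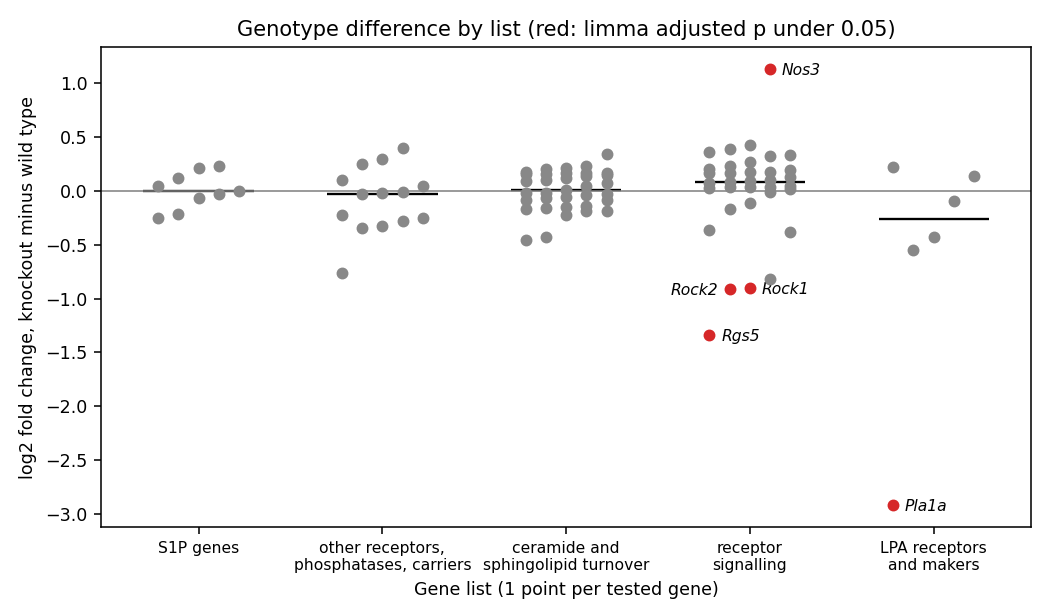
Log2 fold change (knockout minus wild type) of every tested gene of the 9 S1P genes and 4 related lists; red points had a limma adjusted p under 0.05 and black lines are list medians. The S1P genes stay between -0.25 and 0.23, while the called genes Nos3, Rock1, Rock2, Rgs5 and Pla1a lie outside. Several genes that were not called also lie outside, such as Plcb1 (-0.82), Mfsd2b (-0.76) and Rgs4 (0.43).

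Lysophosphatidic acid (LPA) is the sister lipid that Ppap2b also degrades. Of 12 genes listed for LPA and related lipids, 6 could be tested, namely Lpar1, Lpar6, Enpp2, Pla1a, Agpat1 and Agpat2. Not all of these make or sense LPA itself. Only Pla1a was called in limma, where 1.94% of all tested genes were, and the list was chosen with earlier results of these data known. Of the 6, 3 had an unadjusted p under 0.05, against 15.7% of all tested genes (median log2 fold change of the 6, -0.26). Pla1a encodes a phospholipase that yields a lysophospholipid from phosphatidylserine. It fell from 75.4, 80 and 90.3 RPKM to 10.6, 9.45 and 11.1 (-2.92 ± 0.11 SE, adjusted p = 1.27e-06). Enpp2, which encodes autotaxin, the main maker of extracellular LPA, was at 75.3, 89.6 and 67.8 in the wild-type and 53.7, 51.2 and 68.0 in the knockout libraries (-0.43 ± 0.14 SE, adjusted p = 0.183).

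The other marker lists are given for the cells the sort could hold. Of all tested genes, 1.94% were called, 15.7% had an unadjusted p under 0.05 and 20.3% had groups that did not overlap. In limma, 0 of 12 endothelial markers were called (2 at an unadjusted p under 0.05, with Cldn5 highest, at 1041 to 1108 RPKM in wild type and 1244 to 1367 in knockout). Of 6 tested lymphatic and sinusoidal markers, Clec4g and Fcgr2b were lower. Of 11 tested reticular and fibroblast markers, Cxcl13 was lower, and Des, at 30.3 to 55.6 RPKM, had the highest mean over the 6 libraries, below Cxcl13 in every wild-type library. Of 20 dissociation and early response genes, Hspa8 rose, from 33.2, 92.8 and 97.2 RPKM to 188, 205 and 203. In that list 16 values were positive, and the median log2 fold change was 0.22. An unadjusted p under 0.05 was reached by 8, against 15.7% of all tested genes, and the groups of 5 did not overlap, against 20.3%. Its summed level was 6457 to 7173 RPKM in wild type and 7081 to 8293 in knockout, and the part of these genes in the results was not tested. Dusp1 had the highest mean of that list, at 1214 to 1364 RPKM in wild type and 1222 to 1605 in knockout. Of 5 macrophage and 3 mesothelial markers tested, 0 were called in limma (3 and 0 at an unadjusted p under 0.05). Summed levels in wild type and knockout were 177 to 218 and 200 to 238 RPKM for the macrophage markers, most of it Vcam1, and 1.07 to 16.0 and 2.10 to 6.73 for the mesothelial markers, with Krt19 highest.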

How the data were processed

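RNA-seq of sorted spleen endothelial cells was made with a SMART-Seq low-input kit and Nextera XT, per the labels' protocols. STAR 2.5.2b and Subread, together with limma and edgeR, are listed as tools and mm10 as the build, per the submitters' processing notes, without order or settings. The authors deposited normalized values for 23337 genes in 6 libraries, read here as RPKM, and, per the file headers, a table of log2 fold changes with raw and adjusted p-values for 13742 genes. The normalized table names no unit. Its values were taken as RPKM because, for all 17683 genes above 0, they were whole multiples of 1 read's worth within 0.001 read, and 99.2% of the gene lengths this implied were whole within 0.05 base. Reads per gene and depth follow from this. Column names give a genotype and a number that was not matched to the labels' replicate numbers, so columns were assigned to groups only.

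Values of log2(RPKM + 0.5) for the 11035 genes that reached 1 RPKM in 3 or more libraries were fitted on genotype with limma 3.58.1 (intensity trend) in R 4.3.3, with Benjamini-Hochberg adjustment over all of them and a threshold of 0.05. Recovered reads were used only for an alternative with voom, after scaling by a trimmed mean of log ratios. Shares within a library were compared by exact permutation over 20 assignments, in Python 3.11.15. On simulated data for 10983 genes, the fit recovered 36% of 1.5-fold, 76% of 2-fold and 92% of 3-fold changes, 7.93% of its calls were false, and 94.3% of the 95% intervals held the true value.

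The 9 genes and all lists were chosen with earlier results of these data known. Named genes are the 9, Stab1, every called gene of 4 related lists (up to 2 of smallest p where fewer than 2 were called), called markers and those of highest mean, and the 3 genes most like the S1P gene of smallest p. Others, such as Dcn, Msln, Klf2, Ppap2a, Mfsd2b, S1pr5 and the G protein genes, and the shares of S1pr4 and of S1pr2 against S1pr3, were chosen after their values were seen. Of 254 list entries, 245 matched by symbol and 9 by another symbol. Coordinates are RefSeq's for GRCm38.p6, the assembly of mm10, and exon overlaps, GC content and length come from GENCODE M21.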

Additional observations from a re-analysis of the deposited data

How the results depend on the processing

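Under 17 alternatives, 139 of 151 values for the 9 genes kept their sign, and 2 had an adjusted p under 0.05. These were Sphk2 (0.42, adjusted p = 0.0182) and Spns2 (0.40, 0.0115) with library quality weights. Those weights ran from 0.336 for WT 1 to 4.19 for WT 4, and gave 3653 called genes in all and 36 in the related lists, against 214 and 5. No filter on low values gave 77 and 2. Leaving out 1 library gave 56 (without KO 3), 83 (KO 2), 93 (WT 4) and up to 418 (KO 4) called genes, and 1 (KO 3), 2 (KO 2), 3 (WT 4) and up to 6 (KO 4) in the related lists. Signs turned for S1pr1 with quantile normalization (-0.01), with quality weights (-0.12) and without WT 3 (-0.02) or KO 4 (-0.01). They turned for S1pr2 with quantile normalization (0.09) and without WT 3 (0.22), for S1pr3 without WT 1 (0.02) and for Sgpl1 without KO 3 (-0.02). For Sgpp1 they turned with median centring (0.01), with trends in GC content and length taken out (0.05) and without WT 4 (0.01) or KO 3 (0.09). Over single libraries left out, the log2 fold change ran from -0.02 to 0.11 for S1pr1, -0.29 to 0.22 for S1pr2, -0.42 to 0.02 for S1pr3, -0.02 to 0.25 for Sgpl1 and -0.09 to 0.09 for Sgpp1. The Sgpp1 share difference was then -0.10 to 1.60, that of Sphk1 -10.42 to -6.01 and that of S1pr1 0.37 to 1.04. The cause of these changes was not tested. A fit with the number of the column names as a replicate block, which only numbers 3 and 4 share between genotypes, gave 355 called genes and 0 of the 9. Deviations from the group means correlated across genes at 0.193 between WT 3 and KO 3 and at 0.193 between WT 4 and KO 4. Pairs of unlike number were lower, at -0.162 to 0.094. Nothing in the labels ties libraries of the same number together, and the reason for the likeness was not tested. Reads were fewest for S1pr2, at 161 in WT 1, and counting errors were largest for S1pr2 and S1pr3 (at most 7.9% and 6.1%). The wild-type coefficients of variation of S1pr2 and S1pr3 were larger than these errors, at 42.1% and 38.5%.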
